A study of Mus musculus with 28 samples.

Results

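Interferon-stimulated genes are the antiviral and immune genes that cells switch on when interferon or viral nucleic acid is sensed. A list of 37 mouse genes of this class was followed through the chemical conversion of fibroblasts into endoderm progenitors and hepatocyte-like cells. The genes were matched by name to the rows of the series' count and TPM tables, and 36 of the 37 names were found among 31673 genes. Mx2 was not analysed here. The rule is a list of names and uses no measured value, but the names were chosen with earlier results of these data known.

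The 28 RNA-seq libraries fell into 9 cell groups. MEF (3 libraries) were fibroblasts of E13.5 mouse embryos, and MNF (2 libraries) were dermal fibroblasts of newborn mice, both at passage 2. MEF_ciEPC (10 libraries) and MNF_ciEPC (2 libraries) were the chemically induced endoderm progenitor cells made from them. For MNF_ciEPC the source field of the labels names MEF, while title, description and cell type name MNF; the latter were followed, and every result that uses MNF_ciEPC rests on that reading. MEF_ciEPC came as 2 numbered series, with passages 2, 3, 4, 6, 10 and 22 in series 1 and passages 1, 5, 10 and 22 in series 2, and MNF_ciEPC were at passages 2 and 3. MEF_ciHep (3 libraries) and MNF_ciHep (2 libraries) were hepatocyte-like cells differentiated from such progenitors at passages 3 to 10. ESC (2 libraries) were embryonic stem cells of the OG2 line at passage 5, ESC_EPC (2 libraries) were endoderm progenitors derived from stem cells of passages 10 to 15, and pHep (2 libraries) were uncultured hepatocytes of adult liver. The labels used here name no chemical, dose or culture time. All groups carry an Oct4-GFP reporter transgene, kept on a CBA/CaJ X C57BL/6J background in MNF, MNF_ciEPC, MNF_ciHep and pHep. In MEF, MEF_ciEPC, MEF_ciHep, ESC and ESC_EPC that allele was crossed to 129Sv/Jae females. Fibroblast source and strain therefore cannot be told apart in any MNF against MEF comparison. Cell type and strain cannot be told apart in MEF_ciHep against pHep. The labels do not say whether libraries of a group came from separate cultures or animals, so p-values measure the spread between these libraries, which may be technical.

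Type I interferons bind the receptor made by Ifnar1 and Ifnar2, which activates the kinases Jak1 and Tyk2 and, through them, a transcription factor complex that includes STAT2 and IRF9. This complex binds the interferon-stimulated response element, a DNA motif upstream of many of these genes. Among the gene products are the sensors that detect viral RNA, the enzymes that degrade RNA or block translation, and the ubiquitin-like protein ISG15, so the pathway amplifies itself. Pluripotent stem cells are known for a weak response to interferon, whereas fibroblasts and hepatocytes respond readily.

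Part of the list carries the response element motif close upstream. The motif was not itself used to choose the genes, but it is typical of the class they were chosen from. An excess over all genes is therefore not separate evidence about the list. Windows of 250 bases upstream of the transcription start (RefSeq, GRCm38) were read for 28 of the 36 genes, and none was used for Dhx58, Zbp1, Oas2, Usp18, Mx1, Parp9, Parp14 and Rtp4. The core of the response element, TTTC followed by any 2 bases and TTTC again, searched on both strands with overlapping matches allowed, was present in 11 of the 28 genes (39.3%) and in 936 of 27025 genes with a window (3.46%). The core of the gamma-activated site, TTCNNNGAA, which reads the same on both strands, was present in 5 of the 28 (17.9%) and in 8.13% of all genes. The 11 genes were Gbp3, Gbp2, Isg15, Oas3, Oas1a, Bst2, Stat2, Slfn5, Rsad2, Ifit3 and Ifit1. The following stretches belong to 6 of them, those with the smallest adjusted p in the comparison of MNF_ciEPC with MNF. Gbp2 was left out because its match lies in an annotated exon. The 6 were thus picked by a change described below, and whether the motif goes with that change was not tested. Each is written 5′ to 3′ on the gene's own strand, with bases that match the core, or its reverse complement with GAAA in place of TTTC, in capitals.
Slfn5 (chr11:82951902-82951984, plus strand): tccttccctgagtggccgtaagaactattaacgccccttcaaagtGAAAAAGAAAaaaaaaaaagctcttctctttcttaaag
Ifit3 (chr19:34583328-34583461, plus strand): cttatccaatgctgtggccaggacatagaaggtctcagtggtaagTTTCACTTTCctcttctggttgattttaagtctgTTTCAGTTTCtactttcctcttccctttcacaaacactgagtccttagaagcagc
Isg15 (chr4:156200830-156200941, minus strand): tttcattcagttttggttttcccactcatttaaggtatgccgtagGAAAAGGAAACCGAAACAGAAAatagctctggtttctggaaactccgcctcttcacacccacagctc
Ifit1 (chr19:34640740-34640858, plus strand): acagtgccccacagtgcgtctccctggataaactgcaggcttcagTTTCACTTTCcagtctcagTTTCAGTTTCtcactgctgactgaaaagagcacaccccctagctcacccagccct
Gbp3 (chr3:142559954-142560025, plus strand): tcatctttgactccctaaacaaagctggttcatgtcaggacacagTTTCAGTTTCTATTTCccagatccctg
Stat2 (chr10:128270248-128270330, plus strand): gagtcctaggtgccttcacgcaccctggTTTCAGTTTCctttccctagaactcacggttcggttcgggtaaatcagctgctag
Isg15 held 3 overlapping matches and Gbp3 held 2 overlapping matches. Ifit3 and Ifit1 held 2 separate matches each, in the same 2 versions, TTTCACTTTC and TTTCAGTTTC. The Slfn5 stretch is upstream of the RefSeq start used here. It lies inside the GENCODE gene model of Slfn5, which runs from 82951349 to 82964840, though outside its exons. A match describes these letters only and is not a measured binding site.

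The libraries held 1439670 to 6133147 expected counts assigned to genes. The length implied by the gene length less its effective length was about 75 bases in MEF, MNF, MNF_ciEPC and ESC (74.3 to 74.5), about 50 bases in pHep, MEF_ciHep, MNF_ciHep and MEF_ciEPC (49.5 to 50.6) and 186.6 to 195.7 bases in ESC_EPC. The steps from MEF to MEF_ciEPC, from MNF_ciEPC to MNF_ciHep and from ESC to ESC_EPC, and the comparisons of MNF_ciEPC with MEF_ciEPC and of MEF_ciEPC with ESC_EPC, run between these length classes, where cell group and library type cannot be told apart. Some libraries went against their labels. In MNF_ciHep the hepatocyte gene Alb was at 0 and 0.59 CPM, and 6 hepatocyte markers summed to 14.6 and 53.1 CPM, against 7222 to 15330 in MEF_ciHep. Their 7 fibroblast markers summed to 3121 and 7001 CPM, against 76.5 to 163.7 in MEF_ciHep. The MEF_ciEPC library of series 2 passage 22 held 1252 CPM of the stem cell factor Pou5f1 and 0.502 CPM of the endoderm factor Sox17, against at least 279 CPM of Sox17 in the other MEF_ciEPC libraries. The library of series 1 passage 2 held 132 CPM of the collagen gene Col1a1, where the other MEF_ciEPC libraries held 0 to 12.6. Levels below are CPM, read counts scaled by library size and by the trimmed mean of M-values, and a gene is called changed at a Benjamini-Hochberg adjusted p under 0.05 over 16061 genes with at least a 2-fold change in edgeR's quasi-likelihood test. Shares of all genes given below refer to calls by edgeR. Counts at an unadjusted p under 0.05, and counts by DESeq2 or limma beside them, cover the listed genes only. They are not to be set against those shares.

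**Figure D1:**
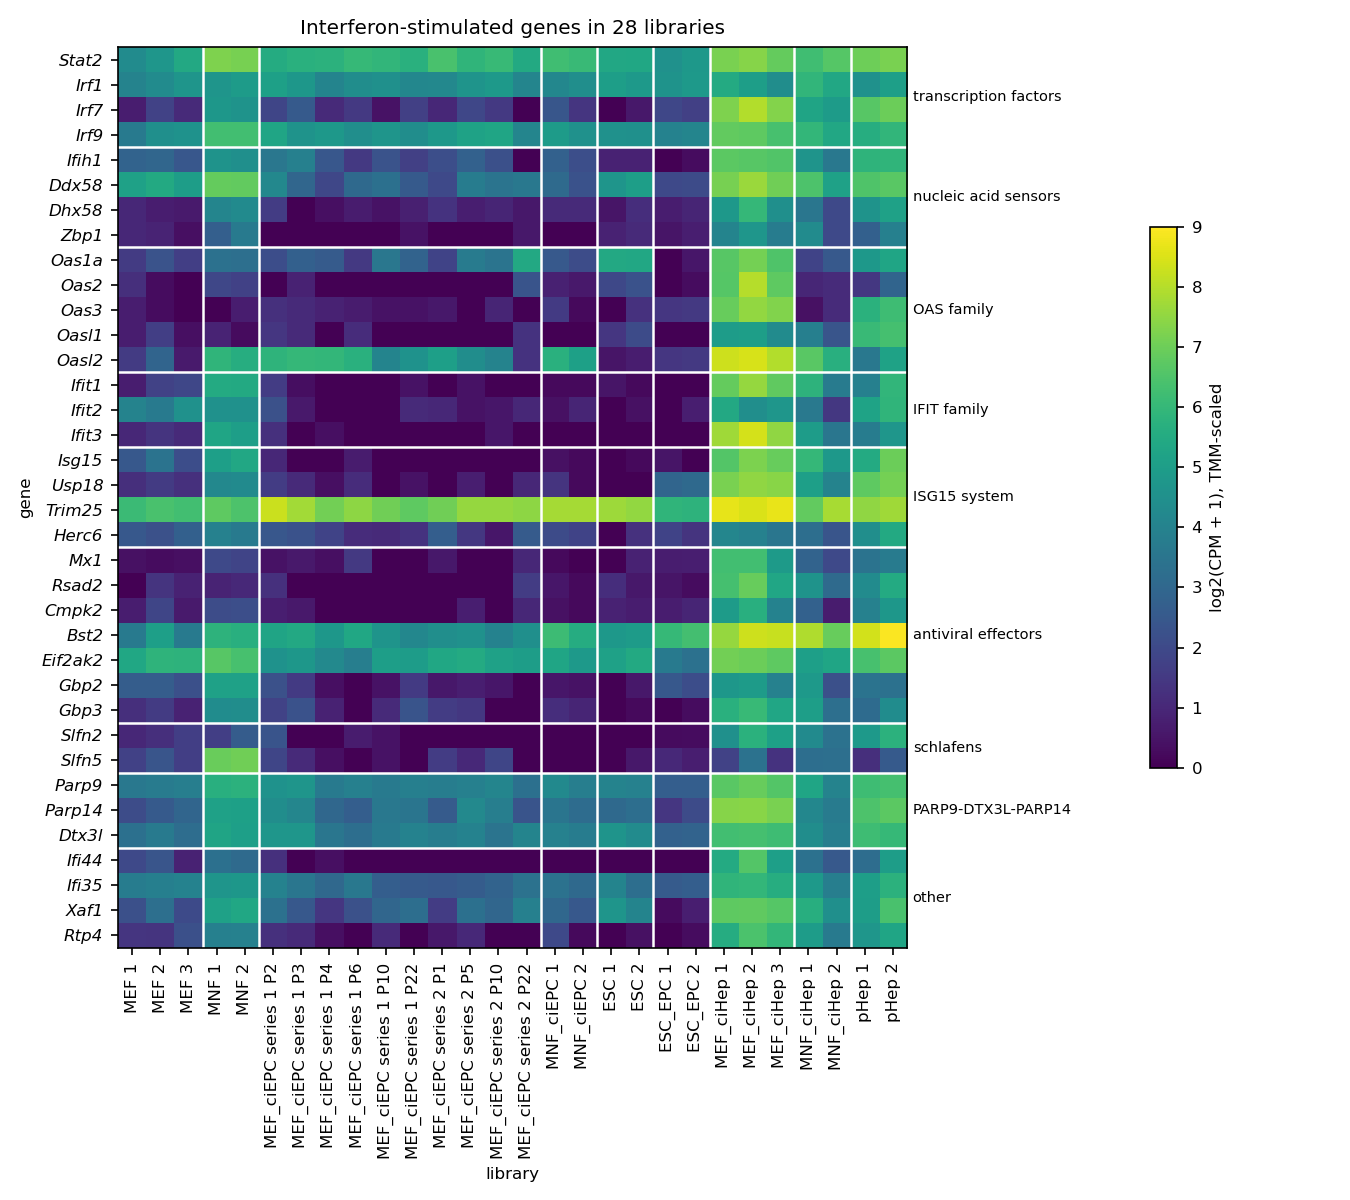
Level of each of the 36 interferon-stimulated genes (rows, grouped by role) in each of the 28 libraries (columns, grouped by cell group, P = passage), as log2(CPM + 1) on a colour scale. The 3 MEF_ciHep columns are bright over nearly all rows, pHep and MNF follow, and the progenitor and stem cell columns are dark for the OAS, IFIT and ISG15 rows other than Trim25, Oasl2 and, in ESC, Oas1a.

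Over all 36 genes, the level was lowest in MEF, the progenitors and the stem cells and highest in MEF_ciHep. In TPM, which is scaled for gene length, the 36 genes summed to 226 to 329.6 in MEF, 370.5 and 404.7 in ESC, 343.1 and 409.1 in ESC_EPC and 418.1 and 561.2 in MNF_ciEPC. MEF_ciEPC ran from 285.6 through a median of 331 to 619.7 TPM, the highest being the passage 2 library of series 1. The sum was 1111 and 1119 TPM in MNF, 899.4 and 1611 in MNF_ciHep, 1590 and 2981 in pHep and 2795, 3031 and 4257 in MEF_ciHep. MEF_ciHep and pHep overlapped, as did MNF and MNF_ciHep, and every library of these 4 groups lay above every library of the other 5. Bst2, which encodes the membrane protein tetherin that holds budding virus at the cell surface, was the most abundant of the 36 genes per length in MEF_ciHep, with 452.7, 780 and 708.9 TPM. The mean CPM was highest in MEF_ciHep for 27 of the 36 genes, in pHep for 5, in MNF for 3 and in MNF_ciHep for 1. In bulk RNA, fewer cells of a type and less RNA per cell cannot be told apart.

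**Figure D2:**
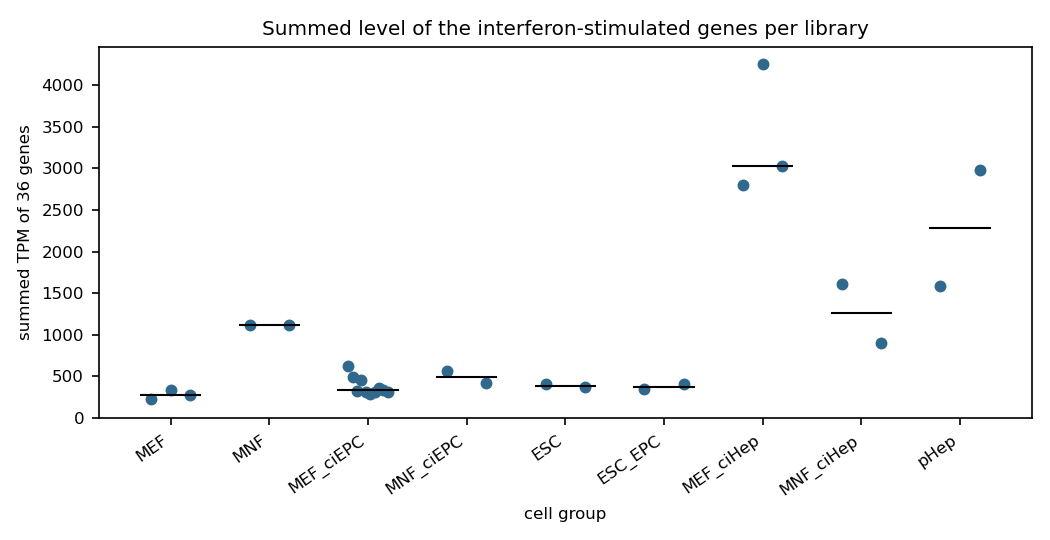
Summed TPM of the 36 genes in each library (points) by cell group, with the group median as a line. MEF_ciHep lies at 2795 to 4257 TPM, pHep at 1590 and 2981, MNF and MNF_ciHep between 899.4 and 1611, and the other 5 groups between 226 and 619.7.

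The 2 kinds of starting fibroblast differed before any conversion. In MNF, 24 of the 36 genes were higher than in MEF and 0 were lower, where 8.6% and 7.81% of all genes tested were called higher and lower. At an unadjusted p under 0.05, edgeR had 28 higher and 0 lower, and DESeq2 and limma called 0 lower. The median log2 difference of the 36 genes was 2.02, against 0 for all genes. Of the 36, 31 had no overlap between the libraries of the 2 groups. This count was not made over all genes. With 2 or 3 libraries a group, unchanged genes can separate too, so it is not read as particular to the list. MEF and MNF share a length class, but differ in strain and source.

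Slfn5, a schlafen gene, had the largest difference, with 123 and 130.3 CPM in MNF against 2.31, 4.19 and 2.22 in MEF (log2 difference 5.38 ± 0.57 SE, adjusted p = 3.4e-05 by edgeR). Ifit3, of the IFIT family of proteins that bind foreign RNA, was at 38 and 31.9 CPM in MNF and at 0.988, 1.54 and 1.11 in MEF (4.77 ± 0.52, adjusted p = 8.69e-05). The factor Irf7, which amplifies interferon production, was at 26.2 and 23.8 CPM in MNF and 0.659, 2.42 and 1.11 in MEF (4.02 ± 0.43, adjusted p = 2.92e-05). For these 3 genes every MNF library was above every MEF library. Stat2 and Irf9, the partners in the factor that binds the motif shown above, were 4.95-fold and 3.99-fold higher in MNF (adjusted p = 2.34e-05 and 5.94e-05). Parp14, a macrodomain ADP-ribosyltransferase, had the smallest adjusted p (34.4 and 33.4 against 3.29, 4.85 and 6.65 CPM, log2 difference 2.74 ± 0.25, adjusted p = 1.14e-05). All 4 nucleic acid sensors, Ifih1 (MDA5), Ddx58 (RIG-I), Dhx58 (LGP2) and Zbp1, were called higher in MNF. The oligoadenylate synthetase (OAS) family did not move as a block, with Oasl2 (58.7 and 47.8 against 0.554 to 6.39 CPM) and Oas1a called higher, while Oas3 stood at 0 and 0.643 CPM in MNF and at 0 to 0.659 in MEF. Herc6, Oas1a and Bst2 were no longer called without either MNF replicate (Oas1a 1.58, adjusted p = 0.107 without replicate 1, Bst2 1.32, adjusted p = 0.115, Herc6 1.32, adjusted p = 0.185) or without MEF replicate 1.

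Conversion of MNF to progenitors lowered most of the list. In MNF_ciEPC, 27 of the 36 genes fell and 1 rose, where 21.9% and 18.4% of all genes were called lower and higher. The median log2 difference was -2.85, or -2.44 with genes at 0 set to their bound, against 0 for all genes. For 32 genes both MNF_ciEPC libraries were lower than either MNF library. This count was not made over all genes. With 2 libraries a group, unchanged genes often separate too, so it is not read as particular to the list. MNF and MNF_ciEPC share a length class. Fibroblast markers summed to 62270 and 67720 CPM in MNF and to 1284 and 1542 in MNF_ciEPC. Most of the latter was Pdgfra, the only marker of that list with a higher mean in MNF_ciEPC (1391 against 734.5 CPM). The 16 macrophage and leukocyte markers summed to 55.7 to 82.1 CPM in MNF and to 13.1 to 15.3 in MNF_ciEPC. The part of either marker list in the result was not tested.

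Slfn5, Ifit3, Ifit1 and Isg15, whose sequences upstream of the RefSeq start are shown above, were at or near 0 after conversion. Their sequences were picked for printing by this same comparison. Oas1a, Oas3, Bst2 and Rsad2 also carry the core motif and were not called in this step. Ddx58, Irf9 and Dtx3l have no match in the window and fell. Ifit3 was at 38 and 31.9 CPM in MNF and at 0 in both MNF_ciEPC libraries, at least 138-fold lower when the group is set to 3 counts (adjusted p = 2.85e-06). Slfn5 went from 123 and 130.3 CPM to 0 in both libraries, at least 499.7-fold lower (adjusted p = 7.56e-07). Isg15 went from 32.4 and 40.9 CPM to 0.315 and 0.182, a ratio of 145 with a counting interval of 49.2 to 706.4. Ifit1 went from 44.5 and 43.5 CPM to 0.158 and 0.182, a ratio of 260.7 (71.7 to 2160). Zbp1, Ifi44 and Slfn2 were also at 0 in both MNF_ciEPC libraries, at least 34.3-fold, 33.1-fold and 14.4-fold lower. None of these genes overlapped between the groups.

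The sensor Ddx58 fell from 116 and 114 CPM to 7.72 and 3.81 (log2 difference -4.28 ± 0.39, adjusted p = 4.63e-07). Usp18, the protease that removes ISG15 and dampens the receptor, fell by 4.24 on the log2 scale (17.2 and 18.9 to 1.58 and 0.182 CPM, adjusted p = 6.69e-06). Smaller falls were seen for Irf9 (-1.53 ± 0.26), Parp9 (-1.69 ± 0.29), Dtx3l (-1.33 ± 0.23) and Eif2ak2, the kinase PKR that blocks translation (-1.43 ± 0.24). Parp9 and Dtx3l are neighbours on chromosome 16 whose gene models overlap on opposite strands, so where counting did not use strand their reads cannot be separated. Stat2 fell by 1.01 (152 and 139.9 to 75.5 and 67.5 CPM), just past the 2-fold minimum, and was not called without MNF replicate 1 (-0.87), MNF replicate 2 (-0.97) or MNF_ciEPC replicate 2 (-0.86).

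No OAS gene was called in this step. Oasl2 was at 58.7 and 47.8 CPM in MNF and 51.6 and 33.4 in MNF_ciEPC (-0.31 ± 0.54, adjusted p = 0.667), and Bst2 at 54.8 and 50.3 against 71.7 and 46.7 (0.19 ± 0.43, adjusted p = 0.751). Irf1 and Rsad2 were not called either. Trim25, a ubiquitin ligase that acts on RIG-I, was the 1 gene that rose, from 107 and 89.3 to 222 and 219.8 CPM (1.18 ± 0.23, adjusted p = 0.00054).

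The same conversion from MEF gave a mixed result. In MEF_ciEPC, 4 of the 36 genes rose and 7 fell, shares near those of all genes (17.6% and 15.8%). The median log2 difference was -0.44 against 0.12 for all genes. Without MEF replicate 2 the falling count was 4, and without the passage 2 library of series 1 it was 10. Without the stem-like library of series 2 passage 22 the counts were 5 and 7. For this fit the libraries of each MEF_ciEPC series were summed to 1 sample.

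Trim25 rose from 69.5, 83.9 and 75.6 CPM in MEF to between 109 and 313 (median 175) in MEF_ciEPC, with no overlap (1.21 ± 0.21, adjusted p = 0.000221). Oasl2 rose from 1.98, 6.39 and 0.554 CPM to a median of 27.8 (lowest 1.51, highest 63.1, log2 difference 3.34 ± 0.60, adjusted p = 0.000323), the lowest being the stem-like library. Parp14 rose by 1.22 ± 0.25 (adjusted p = 0.00101). Oas1a rose by 1.88 ± 0.44 (adjusted p = 0.00255) with its highest value, 41.7 CPM, in the stem-like library. Without that library Oas1a was 1.36 (adjusted p = 0.00723), and without series 2 it was 1.05 and not called (adjusted p = 0.0673). Trim25 was the only one of these 4 genes whose MEF and MEF_ciEPC libraries did not overlap.

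Ifit2 fell from 15.2, 11.7 and 22.7 CPM to a median of 0.498 (0 to 3.75, log2 difference -4.30 ± 0.66, adjusted p = 7.76e-05). Isg15 fell from 4.61, 9.69 and 3.32 CPM to 0 to 1.02 (median 0, -5.12 ± 0.84, adjusted p = 0.000143), and Ddx58 from 34.3, 43.4 and 31 CPM to 2.79 to 17.4 (median 8.17, -2.08 ± 0.34, adjusted p = 0.000128). Ifi44 fell from 2.96, 4.19 and 0.831 CPM to 0 to 1.36 (median 0, -3.72 ± 1.01, adjusted p = 0.00932) and was not called without MEF replicate 2 (-3.18, adjusted p = 0.0503). For Ifit2, Isg15 and Ddx58 every MEF_ciEPC library was below every MEF library, and for Ifi44 the groups overlapped. Zbp1, Ifit3 and Gbp2 were also called lower, at levels of at most 5.29 CPM in MEF, and each lost its call without series 2 (adjusted p = 0.101, 0.147 and 0.102).

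Whether the 2 conversions differed was tested as an interaction. It equals the progenitor difference (MNF_ciEPC less MEF_ciEPC) less the fibroblast difference (MNF less MEF). With 24 genes called higher in MNF and no gene called between the progenitors, the interaction is not separate from the fibroblast difference given above. The change was more negative from MNF than from MEF for 18 of the 36 genes and more positive for 0, where 8.93% and 6.16% of all genes were called. At an unadjusted p under 0.05 edgeR had 21 more negative and 0 more positive, and DESeq2 and limma called 0 more positive. The median of the interaction was -2.15 on the log2 scale, against -0.18 for all genes. Parp14 had the smallest adjusted p (-3.06 ± 0.36, adjusted p = 0.000165), followed by Slfn5, Dtx3l (-1.98 ± 0.31) and Irf9 (-2.09 ± 0.35). All 3 genes of the PARP9, DTX3L and PARP14 group and 3 of the 4 transcription factors were among the 18. The step from MEF crosses length classes and the step from MNF does not, so cell origin and library type cannot be told apart in this interaction.

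After conversion, no difference between the progenitors was called for any of the 36 genes. In MNF_ciEPC against MEF_ciEPC, edgeR called 0 higher and 0 lower, where 0.971% and 3.49% of all genes were called. The 0 of 36 is near these low shares and is not particular to the list. At an unadjusted p under 0.05 there were 1 higher and 4 lower, and DESeq2 called 1 lower. The median log2 difference was -0.16, or 0.03 with genes at 0 set to their bound, against -0.10 for all genes. Slfn5 had the smallest adjusted p (0 in both MNF_ciEPC libraries, 0 to 2.73 CPM in MEF_ciEPC, adjusted p = 0.0708). Bst2, at 71.7 and 46.7 CPM against 14.9 to 41.9, was the only gene of the 36 whose libraries did not overlap (1.21 ± 0.43, adjusted p = 0.11). This comparison crosses length classes.

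Over passages of MEF_ciEPC the list showed no called trend. Of the 17 genes with enough counts in these 10 libraries, 0 rose and 0 fell per doubling of passage (0.00807% and 0.0161% of all 12390 genes tested). At an unadjusted p under 0.05 there were 1 rising and 1 falling, and DESeq2 called 1 falling. Oasl2 fell by 0.58 ± 0.16 per doubling (adjusted p = 0.243) and Oas1a had a slope of 0.62 ± 0.19 (adjusted p = 0.291).

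Differentiation of MEF-derived progenitors to hepatocyte-like cells raised nearly the whole list. In MEF_ciHep, 35 of the 36 genes rose and 0 fell, where 17.8% and 14.8% of all genes were called higher and lower. No gene fell at an unadjusted p under 0.05 in edgeR, and DESeq2 and limma called 0 lower. The median log2 difference was 4.70 against -0.08 for all genes. For 34 genes every MEF_ciHep library was above every MEF_ciEPC library. This count was not made over all genes, so it has no share to be read against. Both groups are in the same length class. The count was 35 without the stem-like library, 35 without series 1 passage 2, and 34 to 35 with any replicate left out. Hepatocyte markers summed to at most 35.6 CPM in MEF_ciEPC and to at least 7222 in MEF_ciHep, leukocyte markers to 7.02 to 96 and to 163.2 to 244.3, and their part in the result was not tested.

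Among the transcription factors, Irf7 rose most, from a MEF_ciEPC median of 1.82 CPM (0 to 4.89) to 151, 248 and 162 (log2 difference 6.52 ± 0.43, adjusted p = 6.84e-08). Irf9 rose from a median of 26.1 to 114, 108 and 83.1 CPM (1.85 ± 0.24) and Stat2 from a median of 56.4 to 147, 165 and 117 (1.29 ± 0.24). These 3 genes did not overlap between groups. Irf1, a factor induced mainly by interferon gamma, was the exception of the 36, at 44.6, 31.8 and 20.1 CPM against 15.6 to 33.4 (0.50 ± 0.29, adjusted p = 0.165). All 4 sensors rose, with Ifih1 at 107, 101 and 92.3 CPM against 0 to 14.1 in MEF_ciEPC (4.19 ± 0.38) and Ddx58 at 140.4, 198 and 131 against 2.79 to 17.4 (4.17 ± 0.36).

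In the ISG15 system, Usp18 had the smallest adjusted p of the 36 (145, 181 and 169 CPM against 0 to 2.04, log2 difference 7.87 ± 0.47, adjusted p = 5.34e-08). Isg15 itself went from at most 1.02 to 94.4, 149 and 118 CPM (9.41 ± 0.79), and Ifit3, with the same kind of core motif upstream, from at most 1.36 to 211, 346 and 182 CPM (9.92 ± 0.64, adjusted p = 3.39e-07). Ifit3 had the largest fitted change, 969-fold. Its near-identical neighbour Ifit3b was at 37.8, 99.8 and 48 CPM in MEF_ciHep, and reads that both genes share were divided between them by the authors' counting. Among the effectors, all 7 rose, with Mx1, a dynamin-like GTPase that blocks virus replication, at 76.5, 75.6 and 29.3 CPM against 0 to 1.84 (7.21 ± 0.63). Rsad2 (viperin) and its divergent neighbour Cmpk2 on chromosome 12 rose by 7.88 ± 0.80 and 6.54 ± 0.83. Parp14, Parp9 and Dtx3l rose by 3.74 ± 0.25, 2.77 ± 0.28 and 2.30 ± 0.21. Slfn5 was the weakest call (2.42, 9.5 and 1.46 CPM against 0 to 2.73, log2 difference 2.17 ± 0.63, adjusted p = 0.0116). It overlapped between groups and was not called without MEF_ciHep replicate 2 (0.74, adjusted p = 0.364) or without MEF_ciEPC series 1 (1.80, adjusted p = 0.092).

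**Figure D3:**
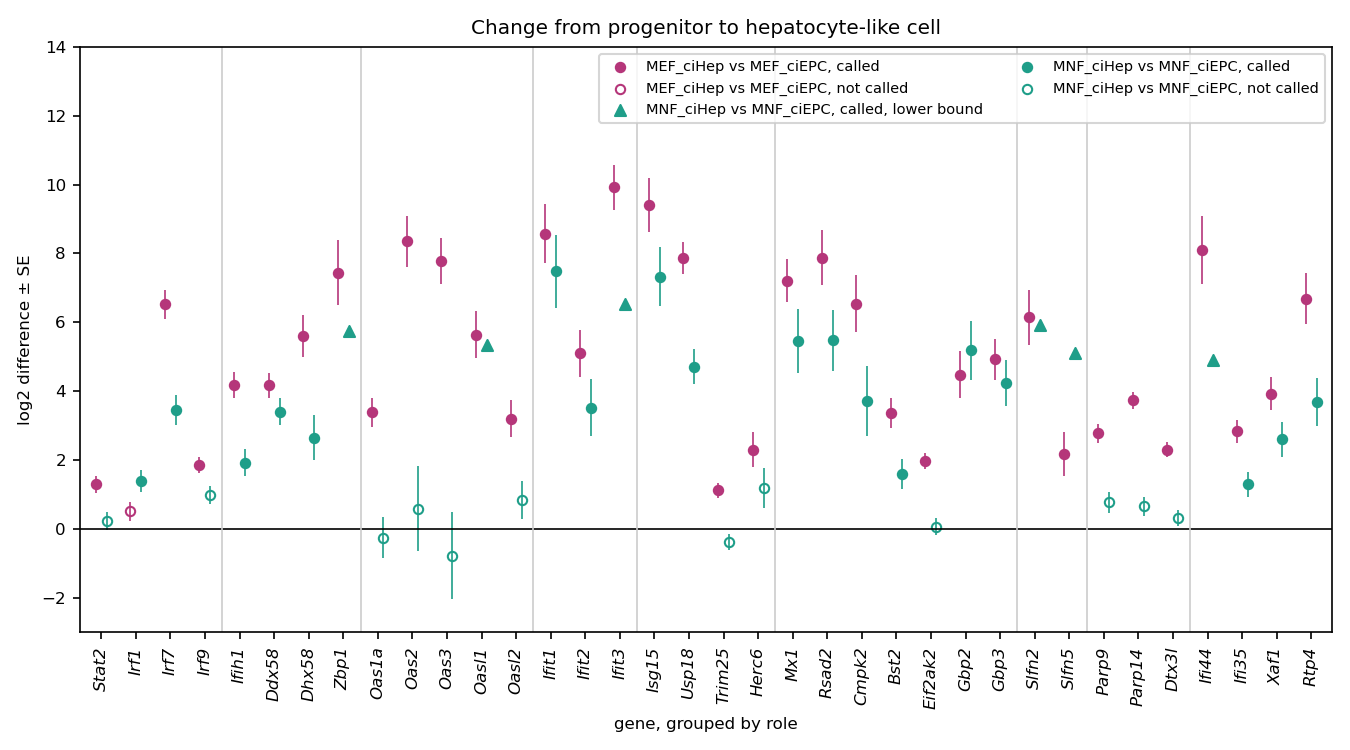
Change of each of the 36 genes from progenitor to hepatocyte-like cell, as the log2 difference with its SE, for the MEF and the MNF origin. Filled points were called, open points were not, and triangles are lower bounds for genes at 0 in both MNF_ciEPC libraries. For the MEF origin 35 points are filled and above 0, while for the MNF origin 24 are, and Oas1a, Oas2, Oas3 and Eif2ak2 differ from 0 by less than their SE.

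The step from MNF_ciEPC to MNF_ciHep raised fewer of the genes. In MNF_ciHep, 24 of the 36 genes rose and 0 fell (19.5% and 10.8% of all genes). The median log2 difference was 3.02 against 0.05 for all genes. No overlap was seen for 28 of the 36. This count was not made over all genes. With 2 libraries a group, unchanged genes often separate too, so it is not read as particular to the list. No gene fell at an unadjusted p under 0.05 in edgeR or was called lower by DESeq2 or limma, and 1 was called lower without MNF_ciHep replicate 2. This step crosses length classes, and these libraries hold few counts of hepatocyte markers and many of fibroblast markers, as described above. Of 5 keratinocyte markers, the summed level was 92 and 103.5 CPM in MNF_ciHep against at most 0.182 in MNF_ciEPC. The part of either marker list in the result was not tested.

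Replicate 1 was above replicate 2 for most genes of the list in MNF_ciHep. Isg15 was at 62 and 27.1 CPM, from 0.315 and 0.182 in MNF_ciEPC, a ratio of 197 (counting interval 66.6 to 961.7). Ifit3 was at 30.4 and 10.6 CPM from 0 in both libraries, at least 92.8-fold higher, and Usp18 at 33.2 and 15.3 from 1.58 and 0.182 (4.71 ± 0.50, adjusted p = 9.31e-06). For these 3 genes both MNF_ciHep libraries lay above both MNF_ciEPC libraries. Irf7 rose by 3.46 ± 0.43 (37.4 and 29.5 CPM) and Ddx58 by 3.40 ± 0.39 (87.7 and 34.8 CPM). Slfn5 went from 0 to 8.55 and 8.85 CPM, at least 34.2-fold higher, which left it far below its 123 and 130.3 CPM in MNF. Irf1, not called in the MEF step, rose here from 16.9 and 20.9 to 59.2 and 40.7 CPM (1.40 ± 0.32, adjusted p = 0.00283), but not without MNF_ciHep replicate 1 (0.99, adjusted p = 0.0696). Without that library, Ifih1, Dhx58, Ifit2, Cmpk2, Bst2 and Ifi35 also lost their calls, with adjusted p from 0.104 (Ifih1) to 0.734 (Cmpk2), and the count fell to 17.

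Of the 12 genes not called in the MNF step, 4 were OAS genes and 3 were Parp9, Parp14 and Dtx3l. Oas1a was at 2.53 and 4.72 CPM in MNF_ciHep against 4.73 and 3.27 in MNF_ciEPC (-0.26 ± 0.59, adjusted p = 0.757). Oas2 was at 0.95 and 1.18 against 0.788 and 0.545 CPM, and Oas3 at 0.317 and 1.18 against 1.89 and 0.182 CPM. In MEF_ciHep the same 3 genes stood at 101, 138 and 90.5 CPM (Oas1a), 98.8, 253 and 109 CPM (Oas2) and 118, 186 and 156 CPM (Oas3). These 3 genes make oligoadenylates that activate the RNA-degrading enzyme RNase L, and they lie within 1 stretch of chromosome 5 (Oas2 starts at 120730333 and Oas1a ends at 120907521, mm10). Oasl1 and Oasl2, OAS-like genes at 114896936 to 114937915 on the same chromosome, behaved otherwise: Oasl1 rose from 0 in both MNF_ciEPC libraries to 13.6 and 4.13 CPM (at least 40.7-fold), and Oasl2 stood at 102 and 50.7 CPM against 51.6 and 33.4 (0.84 ± 0.54, adjusted p = 0.233). Oas1a has close paralogs in the same cluster. Oas1g, the paralog from the list of further interferon-stimulated genes, was at 29.5, 59.6 and 36.3 CPM in MEF_ciHep and 0 in both MNF_ciHep libraries. Reads shared by such copies make the split between them uncertain.

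**Figure D4:**
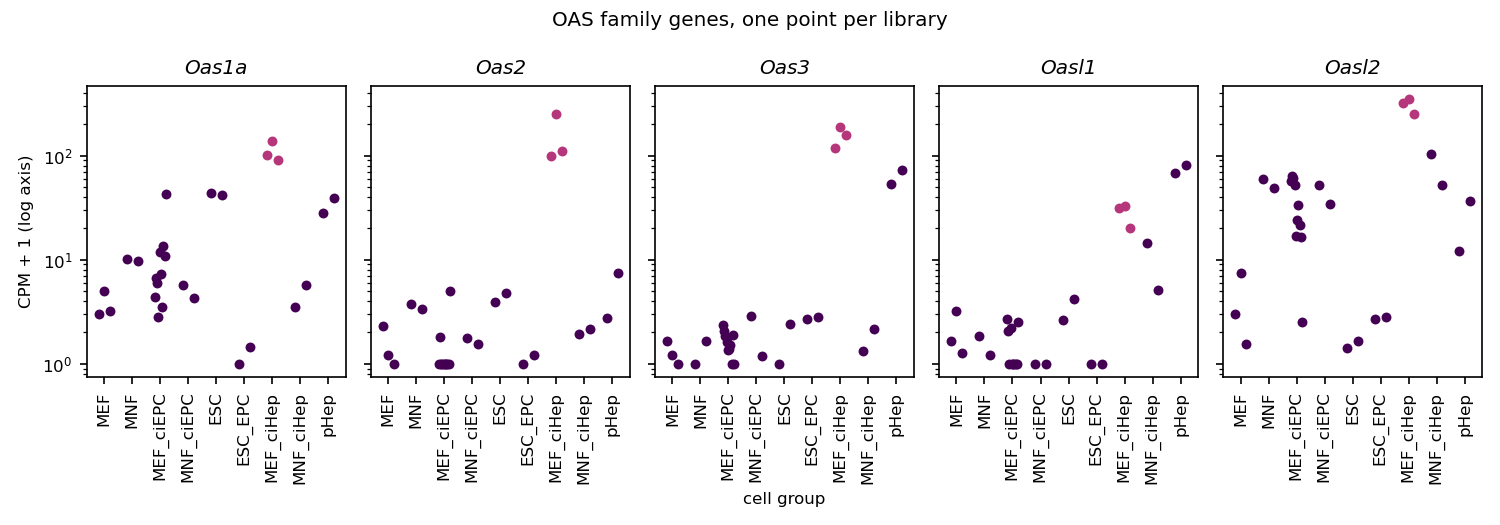
Level of the 5 OAS family genes in each library (points) by cell group, as CPM + 1 on a log axis, with MEF_ciHep in magenta. Oas1a, Oas2 and Oas3 are at 90.5 CPM or more in MEF_ciHep and at 4.72 CPM or less in MNF_ciHep, while Oasl1 and Oasl2 are at 4.13 CPM or more in both groups.

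The difference between the 2 hepatic steps was tested as an interaction, a test added after the values were seen. It equals the difference between the hepatocyte-like cells less that between the progenitors, so it is not separate from the comparison below. The rise was smaller from the MNF than from the MEF progenitor for 17 genes and larger for 1, Slfn5 (12% and 17.7% of all genes), with a median of -1.67 against 0.18 for all genes. Parp14 had the smallest adjusted p (-3.09 ± 0.36, adjusted p = 1.9e-05), followed by Oas3 (-8.57 ± 1.33, adjusted p = 0.000202), Dtx3l (-1.99 ± 0.32) and Eif2ak2 (-1.91 ± 0.34). Oas3 lost the call without MNF_ciEPC replicate 1 (-6.15, adjusted p = 0.159), and the count of 17 fell to 9 without that library. Slfn5, at 0 in both MNF_ciEPC libraries so that its size depends on the fit, lost its call without either MNF_ciEPC library (adjusted p = 0.066 and 0.0563). The 3 IFIT genes were not among the 17.

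Set side by side, the hepatocyte-like cells differed over most of the list. In MNF_ciHep, 27 of the 36 genes were lower than in MEF_ciHep and 0 higher (16.1% and 17.8% of all genes). The median log2 difference was -1.85 against 0.04 for all genes. No overlap was seen for 31 of the 36. This count was not made over all genes. With 2 or 3 libraries a group, unchanged genes can separate too, so it is not read as particular to the list. At an unadjusted p under 0.05 edgeR had 1 higher, DESeq2 called 0 and limma called 2. The MNF_ciHep libraries differ from MEF_ciHep in hepatocyte and fibroblast markers as given above, and the part of that difference was not tested. Without MNF_ciHep replicate 2, the lower of the pair, the count was 17.

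All 5 OAS genes, all 3 IFIT genes, Parp9, Parp14 and Dtx3l were lower in MNF_ciHep. Without MNF_ciHep replicate 2, Oasl1 (adjusted p = 0.228), Oasl2 (0.0612), Ifit1 (0.0965) and Ifit2 (0.0904) were not called. Parp14 was at 16.8 and 12.4 CPM against 164, 166 and 145 (10.6-fold lower, adjusted p = 2.03e-07). Oas1a was 32.1-fold lower (-5.01 ± 0.52, adjusted p = 2.65e-06), and Dtx3l was at 20.3 and 13.6 CPM against 77, 80.1 and 72.1 (-2.14 ± 0.23, adjusted p = 3.46e-06). None of the 3 overlapped between the groups, and each was called without any replicate. Of Oas3, with few counts in MNF_ciHep, the ratio was 267 with a counting interval of 91.3 to 1297. Ifit3 was 11.5-fold lower (-3.52 ± 0.44), and Isg15 2.65-fold lower (-1.41 ± 0.47, adjusted p = 0.0227), a call lost without MNF_ciHep replicate 2 (-0.96, adjusted p = 0.191) or MEF_ciHep replicate 2 (-1.21, adjusted p = 0.07). Bst2 (239.9 and 118 against 191, 317 and 299 CPM) and Gbp2 (27.9 and 3.54 against 26.1, 29.9 and 14.6 CPM) overlapped and were not called.

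**Figure D5:**
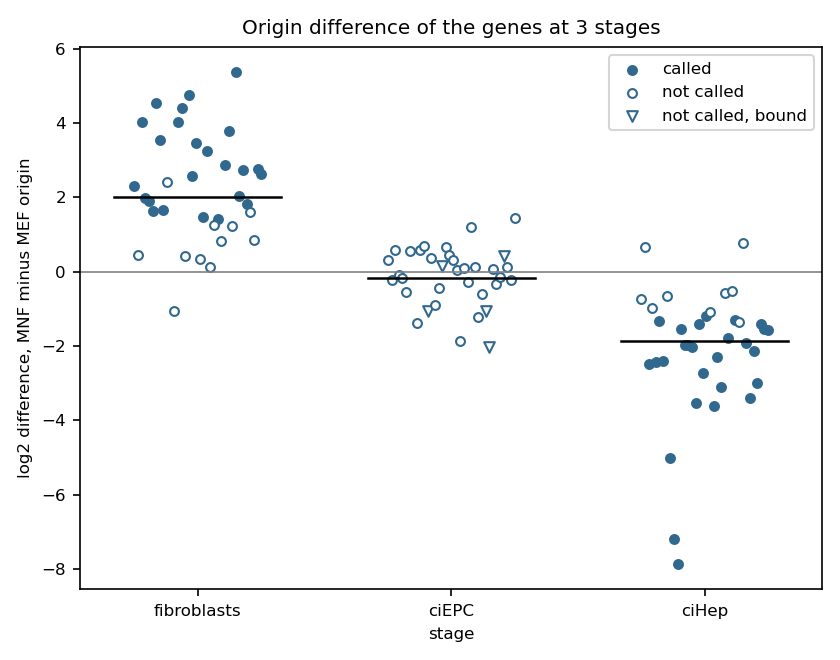
Log2 difference between MNF and MEF origin for the genes at 3 stages (fibroblast, ciEPC, ciHep), with called genes filled and the median of the fitted values over the 36 genes as a line. Open triangles are upper bounds for genes at 0 in both MNF_ciEPC libraries, and Zbp1, with at most 3 counts in each group of that stage, is left out there. The medians are 2.02 in fibroblasts, -0.16 in ciEPC and -1.85 in ciHep. Hepatocyte markers sum to at most 53.1 CPM in the ciHep libraries of MNF origin.

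At the level of single genes the 3 stages read as follows. Irf9 was higher in MNF than in MEF, at 29.3 and 22.5 CPM in MNF_ciEPC against a MEF_ciEPC median of 26.1, and at 61.1 and 41.3 in MNF_ciHep against 114, 108 and 83.1 (-0.97 ± 0.24, under the 2-fold minimum). Parp14 was 6.7-fold higher in MNF than MEF and 10.6-fold lower in MNF_ciHep than MEF_ciHep. The stages share no libraries, and each was tested by its own contrast of the same fit.

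Primary hepatocytes also held these transcripts, so MEF_ciHep were compared with them. MEF_ciHep and pHep differ in strain background, so cell type and strain cannot be told apart in this comparison. In MEF_ciHep, 9 genes were higher and 1 was lower than in pHep (15.1% and 10.8% of all genes), with a median log2 difference of 0.78 against 0.01 for all genes, and the remaining 26 were not called. The higher count ranged from 5, without pHep replicate 1, to 12 with a replicate left out. The pHep libraries differed from each other: replicate 2 was the higher for most of the list and held 47.7 CPM of the myeloid gene Lyz2 against 3.1, and 7.05 CPM of the leukocyte gene Ptprc against 0.442. Kupffer cell markers summed to 16.3 CPM in it and to 0 in replicate 1. Their part in the result was not tested. In MEF_ciHep Ptprc was at 0 in all 3 libraries, while 8 of 16 macrophage and leukocyte markers were above 0 and summed to 163.2 to 244.3 CPM, of which Csf1r made up 133, 60.4 and 182.

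Oas2 stood furthest apart, with 98.8, 253 and 109 CPM in MEF_ciHep and 1.77 and 6.51 in pHep (5.30 ± 0.67, adjusted p = 2.03e-05). Oasl2 was at 318, 347 and 250.1 CPM against 11.1 and 35.3 (3.78 ± 0.59, adjusted p = 0.000152), Ifit3 at 211, 346 and 182 against 12.8 and 25.5 (3.74 ± 0.45, adjusted p = 4.12e-05), and Mx1 at 76.5, 75.6 and 29.3 against 9.73 and 12.5 (2.48 ± 0.49, adjusted p = 0.000965). These 4 genes were above pHep in every MEF_ciHep library. Trim25, Oas1a, Gbp3, Ifit1 and Oas3 were also called, and all but Oas1a lost the call without pHep replicate 1. Oasl1 was the gene called lower, with 30.5, 32.1 and 19 CPM against 67.2 and 79.8 (-1.40 ± 0.49, adjusted p = 0.0393), and it was not called when any of these 5 libraries was left out (adjusted p from 0.0562 to 0.142). Isg15 (94.4, 149 and 118 against 43.8 and 125 CPM), Usp18 (145, 181 and 169 against 109 and 138 CPM) and Bst2 (191, 317 and 299 against 330.5 and 493.2 CPM) were not called.

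MNF_ciHep stood mostly below pHep, with 15 genes lower and 1 higher (13.4% and 18.4% of all genes) and a median log2 difference of -1.15 against 0.11. Parp14, at 16.8 and 12.4 CPM against 87.6 and 105, had the smallest adjusted p (-2.65 ± 0.27, adjusted p = 3.18e-06). Dtx3l was at 20.3 and 13.6 CPM against 72.1 and 64 (-1.94 ± 0.24), Usp18 at 33.2 and 15.3 against 109 and 138 (-2.26 ± 0.36), and Oas3 at 0.317 and 1.18 against 52.6 and 72.2 CPM. These 4 genes did not overlap. Oasl2 was the gene called higher, 102 and 50.7 against 11.1 and 35.3 CPM (1.80 ± 0.60, adjusted p = 0.0251), and was not called without MNF_ciHep replicate 1 (1.21, adjusted p = 0.209) or pHep replicate 1 (adjusted p = 0.182). The count of higher genes ran from 0 to 3 with a replicate left out.

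Stem cells and the progenitors derived from them held low levels with a few departures. In ESC_EPC against ESC, 4 genes rose and 11 fell (18.6% and 14.7% of all genes), with a median log2 difference of -0.44, or -0.12 with genes at 0 set to their bound, against 0.00 for all genes. In 8 of the 36 genes both groups held at most 3 counts. Ifit3, Ifi44 and, in ESC, Slfn2 and Usp18 were at 0 in these libraries. The step crosses length classes.

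Oas1a was at 42.6 and 40.7 CPM in ESC, above every library outside MEF_ciHep other than the stem-like MEF_ciEPC library (41.7 CPM), and at 0 and 0.451 in ESC_EPC (ratio 189.5, counting interval 52.1 to 1571, adjusted p = 1.75e-06). Ddx58 fell from 24.8 and 31.6 to 2.95 and 3.15 CPM (-3.22 ± 0.44, adjusted p = 4.09e-05), Trim25 from 204 and 184 to 58.9 and 56.1 (-1.75 ± 0.24, adjusted p = 4.25e-05) and Dtx3l from 24.4 and 19.5 to 5.89 and 6.31 (-1.83 ± 0.25, adjusted p = 4.38e-05). For all 4 genes the groups did not overlap. Usp18 rose from 0 in both ESC libraries to 6.73 and 7.44 CPM, at least 20.5-fold (adjusted p = 6.2e-05). Bst2 rose from 26.9 and 30.03 to 64.2 and 79.3 CPM (1.32 ± 0.45, adjusted p = 0.0256), and Gbp2 and Irf7 rose at levels of at most 4.63 CPM. The last 3 lost their calls without ESC_EPC replicate 1 (Bst2 adjusted p = 0.0615, Gbp2 0.0573, Irf7 0.068) and without ESC replicate 1 (Bst2 0.112, Gbp2 0.0547, Irf7 0.0562), and the count of 4 fell to 1.

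Of the 2 kinds of progenitor, MEF_ciEPC held more of 12 genes and less of 3 than ESC_EPC (16.8% and 14.9% of all genes), with a median log2 difference of 1.23, or 0.62 at the bounds, against 0.08. Parp14 was at a median of 10.8 CPM (4.02 to 20.4) against 1.68 and 3.15 (2.25 ± 0.31, adjusted p = 4.41e-05), and Trim25 at a median of 175 CPM (109 to 313) against 58.9 and 56.1 (1.61 ± 0.24, adjusted p = 8.15e-05). Oas1a was at a median of 6.02 CPM (1.84 to 41.7) against 0 and 0.451 (ratio 42.7, counting interval 11.7 to 354.3), and Ifih1 at a median of 3.78 (0 to 14.1) against 0 and 0.225. Only Ifih1 of these 4 overlapped, through the stem-like library at 0. Usp18 went the other way, at a median of 0.533 CPM (0 to 2.04) in MEF_ciEPC against 6.73 and 7.44 (-3.36 ± 0.49, adjusted p = 9.14e-05). Bst2 and Gbp2 were also lower, but neither was called without MEF_ciEPC series 2 (adjusted p = 0.0835 and 0.167) or without ESC_EPC replicate 2 (adjusted p = 0.0827 and 0.0796), which left 1 gene. This comparison crosses length classes.

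The rest of the pathway was read from lists drawn up alongside the 36 genes. Of 21 interferon genes, 16 were at 0 in every library. Ifnk, the interferon kappa of keratinocytes, was the only one with more than a few counts: 19.9, 9.84 and 70.3 CPM in MEF_ciHep, 0 to 2.73 in MEF_ciEPC, 2.05 and 0.182 in MNF_ciEPC, 0 and 1.18 in MNF_ciHep, 2.65 and 0 in pHep and 0 elsewhere. It rose from MEF_ciEPC to MEF_ciHep (6.15 ± 1.33, adjusted p = 0.00318) and was lower in MNF_ciHep (-6.14 ± 1.58, adjusted p = 0.00888). Ifnb1, which encodes interferon beta, was at 0.173 CPM in MEF_ciHep replicate 2 and at 0 in all 27 other libraries. Ifnab was at 0.59 CPM in MNF_ciHep replicate 2, Ifna2 at 0.225 in ESC_EPC replicate 2, and Ifnz at 1.5 in MNF replicate 1, 0.341 in MEF_ciEPC series 1 passage 2 and 1.36 at its passage 3. The 5 keratinocyte markers summed to 8.23 to 65.2 CPM in MEF_ciHep and to 92 and 103.5 in MNF_ciHep, and their part in the level of Ifnk was not tested.

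Among the receptor chains and kinases of the pathway, the changes ran in both directions. Both conversions lowered Jak1 (-1.87 ± 0.15 from MEF, -2.17 ± 0.16 from MNF) and raised Ifnlr1, the receptor chain for interferon lambda, which went from at most 0.554 CPM in MEF to a lowest value of 8.04 in MEF_ciEPC (5.50 ± 0.56, adjusted p = 1.4e-06). Ifnlr1 was at 72.6, 50.9 and 58.6 CPM in MEF_ciHep, at 3.17 and 2.36 in MNF_ciHep and at 11.5 and 13.6 in pHep. MNF_ciHep held more Ifnar2 than MEF_ciHep (98.1 and 73.1 against 32.9, 26.4 and 33.7 CPM, log2 difference 1.49 ± 0.20, adjusted p = 3.28e-05), opposite in direction to most of the 36 genes.

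Of the adaptors, kinases and further factors of nucleic acid sensing, 14 of 16 were tested. In MEF_ciEPC against MEF 2 rose and 2 fell (17.6% and 15.8% of all genes), and in MNF_ciEPC against MNF 2 rose and 4 fell (18.4% and 21.9%), shares near those of all genes. Tmem173 (STING), the adaptor of cytosolic DNA sensing, fell in both conversions, from 41.8, 45.2 and 45.7 CPM in MEF to 0 to 3.52 (-5.94 ± 0.41, adjusted p = 6.34e-08) and from 45.1 and 56.8 CPM in MNF to 0.315 and 0.182 (-7.50 ± 0.51, adjusted p = 5.5e-08). It was at 2.42, 3.11 and 2.93 CPM in MEF_ciHep, 2.21 and 1.63 in pHep and 48.4 and 23.6 in MNF_ciHep. Mavs, the adaptor of the RNA sensors, ran between 20.6 and 71.1 CPM over all 28 libraries. Of 7 negative regulators, Socs1, which blocks JAK kinases, was at 32.9 and 32.4 CPM in MNF_ciHep, against 4.36, 3.8 and 2.56 in MEF_ciHep (3.19 ± 0.43, adjusted p = 2.6e-05) and 0.885 and 0 in pHep. The list did not move together between the hepatocyte-like cells. Ptpn6 was called lower in MNF_ciHep (-1.51 ± 0.29, adjusted p = 0.000612 by edgeR), and Socs3, Ptpn2, Pias1, Irf2 and Tnfaip3 were not called.

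Further interferon-stimulated genes outside the 36 were counted in the same fit. Of 41 tested, 26 were higher and 0 lower in MNF than in MEF (8.6% and 7.81% of all genes), and 2 rose and 28 fell in MNF_ciEPC against MNF (18.4% and 21.9%). In MEF_ciEPC against MEF 9 rose and 9 fell, shares near those of all genes (17.6% and 15.8%). In MEF_ciHep against MEF_ciEPC 32 rose and 2 fell (17.8% and 14.8% of all genes), and in MNF_ciHep against MNF_ciEPC 22 rose and 1 fell (19.5% and 10.8%). Between the hepatocyte-like cells, 22 were lower in MNF_ciHep and 4 higher (16.1% and 17.8% of all genes). The IFITM genes, which block virus entry at membranes, departed from this: Ifitm1 fell in MEF_ciHep (-5.02 ± 0.71, adjusted p = 5.56e-05), and Ifitm1 and Ifitm2 were higher in MNF_ciHep than in MEF_ciHep (5.37 ± 0.73 and 2.35 ± 0.36, adjusted p = 3.96e-05 and 9.81e-05). Ifitm3 was at 273 and 120.3 CPM in MNF_ciHep and at 23.7, 138 and 16.8 in MEF_ciHep. Iigp1, an immunity-related GTPase, was higher in MNF_ciHep than in MEF_ciHep (48.1 and 20.6 against 0.969, 7.77 and 2.93 CPM, adjusted p = 0.00141) and lower in MEF_ciHep than in pHep (78.3 and 207 CPM, -4.94 ± 0.63, adjusted p = 3.22e-05).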

How the data were processed

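RNA of 28 mouse libraries was sequenced after Trizol extraction and TruSeq library preparation, per the labels' protocols. Genes were quantified with RSEM 1.2.4 on mm10, per the submitters' processing notes. The aligner, the annotation and whether counting used strand are not given in the sources used here. The authors deposited expected counts and TPM per gene, both used here. FPKM values were deposited by the authors too and were not used, and the deposited gene length and effective length, another kind of column, gave the implied lengths. Expected counts were rounded to whole numbers. RSEM divides reads shared by similar genes, so values of near-identical copies are uncertain.

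Libraries of each MEF_ciEPC series, read as passages of a line, were summed, which gave 20 samples. All 9 groups were fitted together in edgeR 4.0.16 (R 4.3.3) with TMM scaling, filterByExpr at a minimum count of 10, and quasi-likelihood tests with Benjamini-Hochberg adjustment over 16061 genes. All 36 genes passed that filter, and 17 passed it in the 10 MEF_ciEPC libraries, where log2 passage was tested with series as a term (no fold minimum). SE is the log2 difference divided by the square root of F. Folds against groups at 0 use 3 counts over the group as a bound, and ratios with 1 to 3 counts have a 95% counting interval (counting error only). With groups of 2 or 3, depth and replicate number both limit precision.

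Alternatives were RLE scaling, no filter, DESeq2 1.42.0, limma 3.58.1 on log2(TPM + 1), the replicate number as a block, MEF_ciEPC libraries as separate samples, and leaving out libraries. The scripts were tested on simulated data. Genes given in every library were the 2 most abundant of each role and up to 4 called per direction and comparison with the smallest adjusted p, and others named were chosen after their values were seen. The 36 genes and all lists were chosen with earlier results of these data known.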

Additional observations from a re-analysis of the deposited data

Results flagged for a closer look

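Within MEF_ciEPC, 26 genes with more than 3 counts in some library were checked for a library far from the other 9, and 9 gave one. The check assumes normally spread values, which genes at 0 in most libraries do not have. Ifit3 and Ifi44, for example, had 4 counts in 1 library and 0 or 1 in the others. No chance rate can therefore be set against the 9. In the passage 2 library of series 1, 7 genes were far above the rest: Ifit1 at 2.04 CPM, Ifit2 and Gbp2 at 3.75 each, Ifit3 and Ifi44 at 1.36 each, Slfn2 at 4.09 and Trim25 at 313. This is the library with 132 CPM of Col1a1. In the stem-like library of series 2 passage 22, Oas1a was at 41.7 CPM and Oas2 at 4.02, where ESC held 42.6 and 40.7 CPM of Oas1a and 2.89 and 3.83 of Oas2.

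The change from fibroblast to progenitor, a contrast that includes the starting difference between MNF and MEF, differed with the fibroblast source for 18 genes. All were more negative from MNF. By adjusted p these were led by Parp14 (-3.06 on the log2 scale), Slfn5 (-10.82, a size that depends on the fit because MNF_ciEPC was at 0), Dtx3l (-1.98) and Irf9 (-2.09). The change from progenitor to hepatocyte-like cell, a contrast that includes the difference between MNF_ciHep and MEF_ciHep, differed with origin for 18 genes. Of them, 17 were more negative from MNF and 1 more positive. The positive one was Slfn5 (6.21), and the negative ones were led by Parp14 (-3.09), Oas3 (-8.57), Dtx3l (-1.99) and Eif2ak2 (-1.91).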

How the results depend on the processing

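Of 241 member results that were called, 165 were called under every setting tried, and of 3179 single-gene values under the alternatives, 2965 stayed on their side of the threshold with the same sign, 213 lost the call and 1 changed sign. That was Rtp4 in the interaction of the hepatic steps, at 0.0141 (adjusted p = 1) without MNF_ciEPC replicate 1 and at -3.88 without replicate 2. Counts of genes called moved by over 1.5 times in few places, and the cause was not tested. For MNF_ciEPC against MEF_ciEPC, 1 gene was lower instead of 0 with no filter, with DESeq2 and with the replicate block. For MNF_ciHep against MEF_ciHep, 2 were higher instead of 0 with limma. For MEF_ciHep against pHep, the 9 higher became 4 with MEF_ciEPC libraries as separate samples, and the 1 lower became 2 with DESeq2, 0 with the replicate block and 0 with separate libraries. For MNF_ciHep against pHep, the 1 higher became 3 with limma, 2 with the replicate block and 0 with separate libraries. In the passage trend, 1 was lower with DESeq2. Of 73 pairs of same-numbered samples, 0 deviated together with a correlation above 0.1. Most groups hold 2 samples, whose deviations mirror each other, so the pairs are not independent. This check cannot settle whether the numbers pair the samples. The replicate block left every other count of the 36 genes within 1.5 times, with 35 higher in MEF_ciHep against MEF_ciEPC. Leaving out a replicate gave 4 to 7 lower in MEF_ciEPC against MEF, 0 to 1 lower in MNF_ciEPC against MEF_ciEPC, 0 to 1 lower in MNF_ciHep against MNF_ciEPC, 0 to 2 higher and 9 to 20 lower in the interaction of the hepatic steps, and 0 to 1 higher and 17 to 29 lower in MNF_ciHep against MEF_ciHep. It gave 5 to 12 higher and 0 to 1 lower in MEF_ciHep against pHep, 0 to 3 higher in MNF_ciHep against pHep, 1 to 4 higher in ESC_EPC against ESC and 1 to 3 lower in MEF_ciEPC against ESC_EPC. Over all genes, treating MEF_ciEPC libraries as separate samples took the higher and lower counts of the fibroblast interaction from 990 and 1435 to 499 and 428, of MNF against MEF from 1382 and 1254 to 629 and 751, of MNF_ciEPC against MEF_ciEPC from 156 and 560 to 76 and 58, and the lower counts of MNF_ciHep against MNF_ciEPC from 1739 to 1052 and of ESC_EPC against ESC from 2354 to 1454. For MNF_ciEPC against MEF_ciEPC the lower count was 902 with no filter and 211 with limma. The passage trend, 1 rising and 2 falling, gave 10 and 8 with no filter, 96 and 144 with DESeq2, 0 and 0 with limma and 15 and 35 without series 2 passage 22. limma on TPM moved the median of all genes by -0.107 in MEF_ciHep against MEF_ciEPC, 0.138 in MNF_ciHep against pHep and 0.124 in ESC_EPC against ESC, and RLE scaling by under 0.1 everywhere. Genes under about 1 CPM rest on a few counts and their differences are not resolved at this depth.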
